A study of Homo sapiens with 2 samples.

Results

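A set of 4 genes of the glucose response of the pancreatic beta cell was examined in RNA-seq of hESC-derived Stage 6 cells: SLC2A2, KCNJ11, ABCC8 and G6PC2. They were chosen by name, and each of the 4 symbols matched 1 of the 55797 genes measured. Stage 6 ends a stepwise pancreatic differentiation protocol and includes cells that make insulin, and both libraries derive from the established human embryonic stem cell line H1. The live sample (1 library) was cells from which RNA was isolated at once with the RNeasy protocol. The processed sample (1 library) was the other part of the same cells, fixed with 4% paraformaldehyde, permeabilized, stained with antibodies and run through the sorter without selection, after which RNA was extracted with a modified RecoverAll kit (MARIS). The comparison addresses whether this handling shifts the representation of transcripts. No cells were selected for insulin, so both libraries hold every cell type of the culture, and fewer cells of a type and less RNA per cell cannot be told apart.

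A beta cell senses glucose by metabolizing it. GLUT2, the facilitative transporter encoded by SLC2A2, carries glucose across the membrane, where it is phosphorylated. The islet glucose-6-phosphatase catalytic subunit encoded by G6PC2 removes the phosphate again and so opposes this step. Metabolism raises the ratio of ATP to ADP and closes the ATP-sensitive potassium (KATP) channel, built from the pore subunit Kir6.2 (KCNJ11) and the sulfonylurea receptor SUR1 (ABCC8). Closure depolarizes the membrane, voltage-gated calcium channels open and insulin granules are released. In human beta cells SLC2A1 and SLC2A3 are also known as glucose transporters, and SLC2A2 is a gene of hepatocytes and of the absorptive epithelium of intestine and kidney as well.

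Values are FPKM, which scales the fragments of a gene by its exon length and by the size of the library, so that levels of different genes can be set beside each other. Each FPKM comes with a lower and an upper bound from the authors' software that describes 1 library alone, at a level the files do not state. Ratios are given as log2 of processed over live FPKM after adding 1 to both, and this understates differences of genes with low FPKM. With 1 library per condition, no difference has a replicate check and none was tested. Summed FPKM was 510713 in the live and 499398 in the processed library. Read counts are not in the files, but low FPKM values fell on steps and by these steps the FPKM of a single fragment was 1.07 times as large in the processed library. ACTB, beta-actin, had 1970 FPKM in the live and 1879 FPKM in the processed library. ABCC8 had the highest FPKM of the 4 genes in both libraries, followed by KCNJ11, SLC2A2 and G6PC2, and the bounds of neighbours in this order did not overlap in either library.

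Upstream sequence is shown for SLC2A2 and G6PC2, the members with the least transcript. RefSeq promoter entries were found for these 2 of the 4 genes, and KCNJ11 and ABCC8 had none. Each window is the stretch of 190 bases from 250 to 61 bases before the RefSeq start, written 5′ to 3′ on the strand of the gene. The RefSeq table is on GRCh38.p14, and each window matched 1 place on its chromosome in GRCh37, the build of the files. Capitals mark matches, on either strand, to the homeodomain core TAAT or to the E-box CANNTG.

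SLC2A2, chr3:170744570-170744759 (GRCh37, minus strand): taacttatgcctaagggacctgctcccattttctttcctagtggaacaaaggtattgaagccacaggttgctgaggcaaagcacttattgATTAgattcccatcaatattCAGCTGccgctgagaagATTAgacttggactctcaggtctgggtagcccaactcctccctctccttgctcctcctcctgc

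G6PC2, chr2:169757551-169757740 (GRCh37, plus strand): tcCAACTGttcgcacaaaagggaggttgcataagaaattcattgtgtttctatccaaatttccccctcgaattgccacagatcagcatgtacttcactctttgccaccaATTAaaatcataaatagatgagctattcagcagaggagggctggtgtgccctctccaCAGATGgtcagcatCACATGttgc

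The SLC2A2 window held 2 matches to TAAT and 1 to CANNTG, and the G6PC2 window held 1 and 3. Such matches are common, since 42.5% of the windows of the same length from 35116 promoters held TAAT and 52.9% held CANNTG. Neither window held TGTTTAC, a forkhead motif found in 2.24% of promoters. The matches describe the letters of these windows and are not evidence of binding. Transcripts of factors of these classes were present in both libraries. PDX1, a homeodomain factor that marks pancreatic progenitors and beta cells, had 66.5 FPKM in the live and 72.1 FPKM in the processed library. NEUROD1, a basic helix-loop-helix factor of endocrine cells, had 13.1 and 15.2 FPKM. The forkhead factor FOXA2 had 60.8 and 55.1 FPKM.

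SLC2A2 (chromosome 3, 170714137 to 170744539, minus strand) was a gene of very low level. It had 0.0579 FPKM in the live library (bounds 0.0256 to 0.0901), against 0.362 FPKM in the processed library (bounds 0.290 to 0.434). Without a pseudocount this was a 6.26-fold higher value in the processed library, and the bounds allow anything from 3.22-fold to 16.9-fold. On the scale with a pseudocount of 1 the log2 ratio was 0.36. If all fragments came from the longest annotated transcript of 3181 nt, the values stand for about 17 fragments in the live and 102 in the processed library, so the precision in the live library was low. Accordingly the bounds lay 55.7% of the value to either side in the live library. Both values were below the FPKM of 1 used as the floor for comparisons across genes. Of the 17326 genes that reached this floor in either library, 1.78% had a lower FPKM than SLC2A2 in the live library and 4.09% in the processed library. The nearest genes at the floor on either side were RPL22L1, a ribosomal protein paralog with 41.4 and 69.2 FPKM, and TNIK, a kinase of Wnt signalling with 2.54 and 1.99 FPKM.

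The other class I glucose transporters were far above SLC2A2. SLC2A1, which encodes the widespread transporter GLUT1, had 265 FPKM in the live library (bounds 262 to 268), against 214 FPKM in the processed library (bounds 211 to 217). SLC2A3, encoding GLUT3, had 255 and 186 FPKM. SLC2A1 thus exceeded SLC2A2 4584-fold in the live library, with 2910-fold to 10466-fold from the bounds, and 592-fold in the processed library, with 487-fold to 749-fold. SLC2A1 and SLC2A3 were both lower in the processed library and SLC2A2 was higher. SLC2A14, a near copy of SLC2A3, had 11.2 and 10.8 FPKM, and fragments of this pair may have been split between them by the counting. SLC2A4, the insulin-responsive transporter GLUT4 of muscle and fat, had 1.29 and 2.35 FPKM. Over all 8 paralogs listed for the 4 genes, 6 reached an FPKM of 1, and bounds were apart for 1 with a higher and 3 with lower values in the processed library, with a median log2 ratio of -0.22.

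Markers of other cells that use SLC2A2 were present in both libraries. All 8 hepatocyte markers listed reached an FPKM of 1, and their sum was 2464 FPKM in the live and 2677 FPKM in the processed library. Bounds were apart for 3 of them with higher values in the processed library and for 3 with lower values, and the median log2 ratio was 0.10. AFP, a fetal liver protein, had 460 FPKM in the live and 550 FPKM in the processed library, and ALB, albumin, had 42.3 and 45.9 FPKM. SERPINA1, alpha-1-antitrypsin, had the highest level with 1496 and 1579 FPKM. The log2 ratios ran from -0.31 for APOB to 0.28 for APOA1, both apolipoproteins. Of 6 enterocyte markers, 3 reached an FPKM of 1 and 2, FABP2 and ALPI, were listed at 0 in both libraries. The intestinal homeodomain factor CDX2 had 14.1 and 20.9 FPKM, and VIL1, the microvillus protein villin, had 54.6 and 54.1 FPKM. SI, the brush border enzyme sucrase-isomaltase, had 1.004 and 0.488 FPKM, and LGALS4, a galectin of the gut, had 0.328 and 0.000960 FPKM. Of the 3 at the floor, CDX2 had bounds apart with a higher value in the processed library and SI with a lower value, and LGALS4, below the floor, was also lower with bounds apart. The summed enterocyte markers stood at 70.1 and 75.4 FPKM. The part of hepatocyte-like or intestinal transcripts in the SLC2A2 values was not tested.

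KCNJ11 (chromosome 11, 17407406 to 17410878, minus strand) was lower in the processed library. Its FPKM was 2.81 in the live library (bounds 2.52 to 3.09), against 1.88 in the processed library (bounds 1.67 to 2.08), 1.49-fold lower, with 1.21-fold to 1.85-fold from the bounds and a log2 ratio of -0.40. The bounds of the libraries did not overlap. Among the genes that reached the floor, 24.5% had a log2 ratio below that of KCNJ11, so a difference of this size was common. KCNJ11 was also a gene of low level, above 25.6% of these genes in the live and 18.4% in the processed library.

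ABCC8 (chromosome 11, 17414432 to 17498449, minus strand) differed in the opposite direction. Its FPKM was 24.5 in the live library (bounds 22.8 to 26.2), against 43.1 in the processed library (bounds 40.4 to 45.8). The value in the processed library was 1.76-fold higher, with 1.54-fold to 2.01-fold from the bounds and a log2 ratio of 0.79. This stayed inside the 2-fold line, and 9.20% of the genes at the floor had a higher log2 ratio. ABCC8 stood above 78.7% of these genes in the live library and above 89.4% in the processed library. Its bounds reached 6.26% of the value to either side in the processed library, where those of KCNJ11 reached 11.0%. GENCODE release 44 lists 100 transcripts for ABCC8 and 7 for KCNJ11. The deposited value is 1 per gene, and which ABCC8 transcripts carried the difference was not analysed here.

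**Figure D1:**
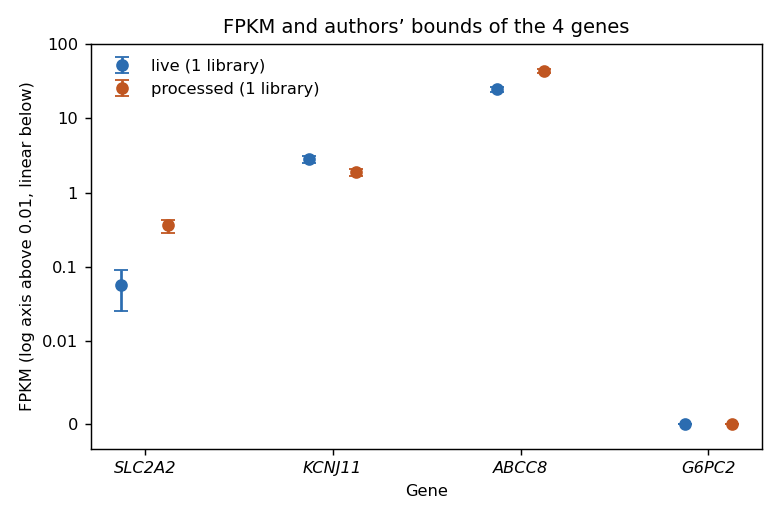
FPKM of the 4 genes in the live and processed libraries (1 library each) on an axis that is logarithmic above 0.01, with the authors' lower and upper bounds as bars. SLC2A2 and ABCC8 are higher and KCNJ11 is lower in the processed library, with bounds that do not overlap, and G6PC2 is at 0 in both.

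The transcripts of the 2 KATP channel subunits therefore differed in opposite directions. A channel holds equal numbers of Kir6.2 and SUR1, but transcript levels were unequal in both libraries. ABCC8 had 8.73 times the FPKM of KCNJ11 in the live library, with 7.37 to 10.4 from the bounds, and 23.0 times in the processed library, with 19.4 to 27.4. These ranges did not overlap, and the ratio was 2.63 times as large in the processed library. Bounds were apart between the libraries for 71.8% of the genes at the floor. The share of gene pairs with such a shift in their ratio was not computed. A ratio of genes within 1 library does not depend on how the libraries were scaled to each other. Per the paper, processing slightly raised the bias of read coverage toward the 3′ end of transcripts, and the part of this in the ratio was not tested.

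Their paralogs KCNJ8 and ABCC9 encode Kir6.1 and SUR2, KATP subunits of vascular smooth muscle. KCNJ8 had 5.04 FPKM in the live library (bounds 4.80 to 5.27), against 4.48 FPKM in the processed library (bounds 4.14 to 4.83), so that its bounds overlapped between the libraries. It exceeded KCNJ11 1.79-fold in the live and 2.39-fold in the processed library. ABCC9 had 0.158 FPKM in the live library (bounds 0.121 to 0.195), against 0.363 FPKM in the processed library (bounds 0.294 to 0.432). ABCC8 exceeded it 155-fold in the live and 119-fold in the processed library. SUR1 transcript was therefore far above SUR2 transcript, whereas Kir6.1 transcript was above Kir6.2 transcript in both libraries. Of 5 heart and skeletal muscle markers, 2 reached an FPKM of 1. These were ACTC1, cardiac alpha-actin, with 28.4 and 19.3 FPKM, and TNNT2, cardiac troponin T, with 2.76 and 5.41 FPKM. The 5 markers summed to 31.5 FPKM in the live and 24.9 FPKM in the processed library. The part of muscle cells in the values of KCNJ11, ABCC8, KCNJ8 and ABCC9 was not tested.

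KCNJ11 and ABCC8 are neighbours on chromosome 11, transcribed from the same strand with 3553 bases between them, and the genes around them also differed between the libraries. USH1C, which encodes the scaffold protein harmonin, is the next gene with an FPKM of 1 or more beyond ABCC8, 16992 bases away. It had 5.99 FPKM in the live library (bounds 5.41 to 6.56), against 15.95 FPKM in the processed library (bounds 13.5 to 18.4), 2.66-fold higher. On the other side, NUCB2, encoding the calcium-binding protein nucleobindin 2, lies 35884 bases from KCNJ11. It had 29.3 FPKM in the live library (bounds 27.5 to 31.2), against 13.2 FPKM in the processed library (bounds 12.3 to 14.1), 2.22-fold lower. ABCC8 and USH1C were thus higher and KCNJ11 and NUCB2 lower in the processed library. RP11-452G18.2, farther out on the side of NUCB2, was also lower, with 8.58 and 5.63 FPKM. Bounds were apart for 71.8% of the genes at the floor, so neighbours that differ are usual, and a link to position was not tested. Inside the span of ABCC8 the files list RP1-239B22.4, with 0.419 FPKM in the live library (bounds 0 to 1.97) and 0 in the processed library.

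**Figure D2:**
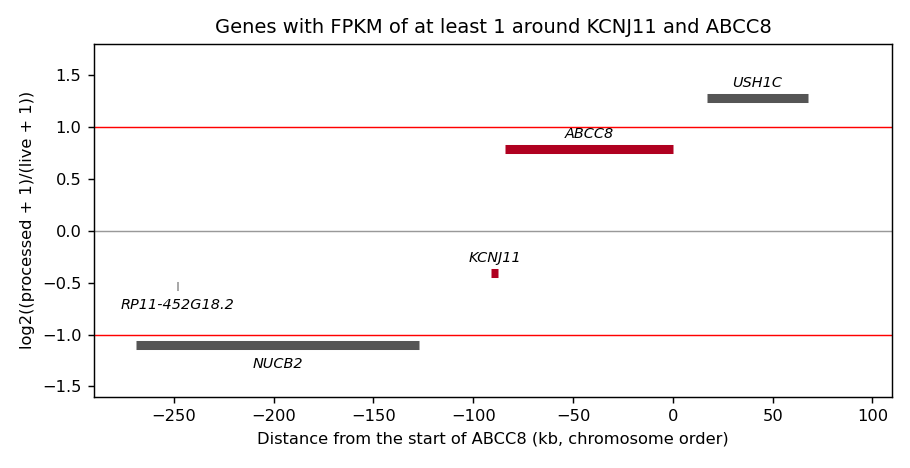
Log2 ratio of processed to live FPKM (pseudocount 1) of genes with an FPKM of 1 or more around KCNJ11 and ABCC8, against distance in kb from the start of ABCC8. Each bar spans a gene and the red lines mark 2-fold; USH1C is above the upper line, NUCB2 is below the lower line, and ABCC8 and KCNJ11 lie between them on opposite sides of 0.

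G6PC2 (chromosome 2, 169757750 to 169766505, plus strand) was listed at 0 in both libraries, with bounds of 0 and status OK. On its longest annotated transcript of 3030 nt, 1 fragment would have been worth about 0.0035 FPKM in the live and 0.0038 FPKM in the processed library. A listed 0 is not proof of absence, and 46.9% of all genes were listed at 0 in the live and 54.8% in the processed library. G6PC2 lies within the span of SPC25, a kinetochore gene on the opposite strand, with 8.69 FPKM in the live library (bounds 8.08 to 9.29), against 6.50 FPKM in the processed library (bounds 4.11 to 8.88). Whether the libraries kept strand is not given in the sources used here. G6PC, the catalytic subunit of liver and kidney, was also at 0 in both libraries. The third member of the family, the widely expressed G6PC3, had 31.1 FPKM in the live library (bounds 29.7 to 32.5), against 23.6 FPKM in the processed library (bounds 22.3 to 24.9). SLC37A4, the transporter that brings glucose-6-phosphate to these enzymes in the endoplasmic reticulum, had 30.8 and 23.7 FPKM. The nearest genes at the floor beside G6PC2 were NOSTRIN, a regulator of nitric oxide synthase traffic with 1.32 and 0.183 FPKM, and LRP2, the endocytic receptor megalin with 9.36 and 13.1 FPKM.

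The 4 genes were next set beside all genes. Only KCNJ11 and ABCC8 reached an FPKM of 1 in either library, and neither was past 2-fold, where 6.57% of the 17326 genes were past the line with higher values in the processed library and 6.19% with lower values. Both had bounds that were apart, 1 in each direction. Bounds were apart for 71.8% of the 17326 genes, with 28.1% higher in the processed library and 43.7% lower, so that bounds that are apart are the usual outcome between these libraries. The excess of lower values depended on the scaling: with the libraries scaled by the median ratio, 6022 genes had bounds apart with higher and 6180 with lower values, in place of 4867 and 7570. The counts of bounds apart in the gene lists are without this scaling. The genes above 0 in either library leave out G6PC2. All 3 members among them had bounds apart, 2 higher and 1 lower in the processed library. Of 30603 such genes, 64.2% had bounds apart, 22.0% higher and 42.2% lower. The median log2 ratio over the 17326 genes was -0.09. No gene was left out of the shares over all genes for its status. Of the 55797 genes measured, 6002 had a status other than OK in the live library.

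**Figure D3:**
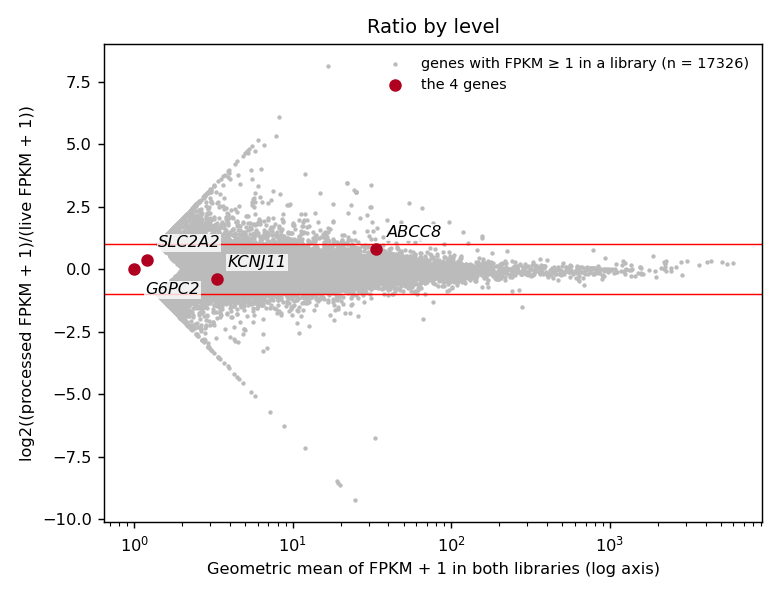
Log2 ratio (pseudocount 1) against the geometric mean of FPKM + 1 in both libraries for 17326 genes with an FPKM of 1 or more in either library (grey) and the 4 genes (red); red lines mark 2-fold. All 4 genes lie between the lines, and ABCC8, at 0.79, is nearest to one. With this pseudocount a gene below an FPKM of 1 in both libraries, as SLC2A2 and G6PC2 are, cannot pass a line.

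The genes whose pair of levels was most like that of a member were sought by the distance between log2(FPKM + 1) values over the 2 libraries. For KCNJ11 this was ZNF347, a zinc finger gene, with 2.77 and 1.89 FPKM at a distance of 0.013. For ABCC8 it was PSMD9, which encodes a proteasome assembly chaperone, with 24.9 and 42.7 FPKM at a distance of 0.026. SLC2A2 is below the floor that every candidate had to reach, so the distance of 0.56 to its nearest gene, AE000658.27, with 0.0701 and 1.003 FPKM, follows from the floor and does not describe a likeness. A likeness over 2 libraries says only that these levels coincide.

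Genes for the phosphorylation of glucose and the handling of its phosphate had small ratios in both directions. HK1, a hexokinase of high glucose affinity that mature beta cells keep low, had 20.8 FPKM in the live library (bounds 20.2 to 21.3), against 25.7 FPKM in the processed library (bounds 24.0 to 27.5). HK2, another high-affinity hexokinase, had 46.5 FPKM in the live and 36.1 FPKM in the processed library. HK3 was listed at 0 in both libraries. Of the 7 genes in this list, 6 reached an FPKM of 1. Among them 1 had bounds apart with a higher value in the processed library and 2 with lower values, with a median log2 ratio of -0.09 and a range from -0.37 for SLC37A4 to 0.30 for HK1.

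All 11 genes listed for pyruvate and mitochondrial coupling reached an FPKM of 1. Bounds were apart for 2 with higher and 6 with lower values in the processed library, and the median log2 ratio was -0.15. PC, the pyruvate carboxylase that feeds the citric acid cycle in beta cells, was the highest of the list at 0.43, with 6.94 FPKM in the live and 9.66 FPKM in the processed library. LDHA, the lactate dehydrogenase subunit that mature beta cells repress, had 546 FPKM in the live library, where its status was a failed estimate, and 406 FPKM in the processed library, the lowest log2 ratio of the list at -0.43. SLC16A1, a lactate and pyruvate transporter that mature beta cells also repress, had 42.2 and 37.9 FPKM. The HK1, LDHA and SLC16A1 values are those of all cells of the culture and do not describe its insulin-expressing cells.

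Downstream of the KATP channel, 14 of 17 genes for membrane excitability reached an FPKM of 1. Bounds were apart for 3 with higher and 4 with lower values in the processed library, and the median log2 ratio was 0.01. CACNA1D, which encodes an L-type calcium channel pore of beta cells, was the only one of these 14 past 2-fold with a pseudocount of 1. It had 0.676 FPKM in the live library (bounds 0.576 to 0.776), against 2.93 FPKM in the processed library (bounds 2.62 to 3.24), a log2 ratio of 1.23. Over all genes at the floor, 6.57% were past 2-fold with higher values in the processed library, so 1 of 14 is near the common share. CACNA1C, the other main L-type pore, had 2.40 and 1.89 FPKM, and CACNA1A, a P/Q-type pore, had 8.85 and 9.29 FPKM. CACNB3, a calcium channel auxiliary subunit, was the highest of the list with 37.4 and 38.6 FPKM. The lowest log2 ratio was that of TRPM4, a calcium-activated cation channel, at -0.49, with 1.34 and 0.667 FPKM. Without a pseudocount TRPM4 was 2.01-fold lower in the processed library.

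**Figure D4:**
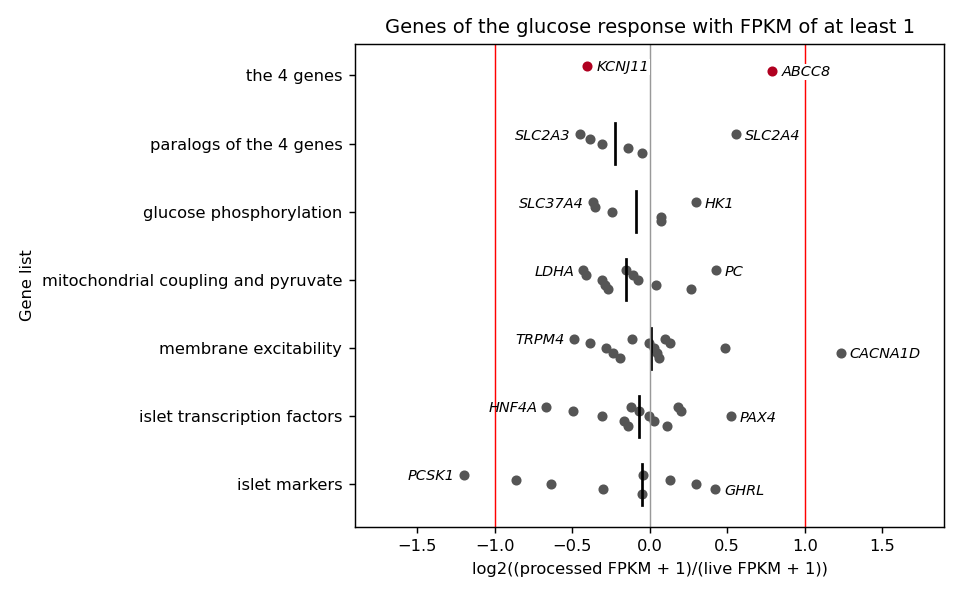
Log2 ratio of processed to live FPKM (pseudocount 1) for genes with an FPKM of 1 or more in either library, for the 4 genes and the 6 lists on the vertical axis. Points are genes, black lines are list medians (none for the 4 genes, of which 2 reached the floor), red lines mark 2-fold and the extremes of each list are named; of the genes plotted, CACNA1D and PCSK1 are outside the lines.

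The endocrine setting of these values was mixed. INS, insulin, had 98.3 FPKM in the live and 121 FPKM in the processed library, 4.02 times ABCC8 in the live and 2.81 times in the processed library. SST, somatostatin, had 243 and 266 FPKM, and GCG, glucagon, had 135 and 131 FPKM. ABCC8 and KCNJ11 are expressed in alpha and delta cells as well as in beta cells. Unsorted cells do not tell which of these, or which other cells of the culture, carried the transcript. The part of other cell types, such as neurons, in these values was not tested. Levels of other genes known from beta cells were uneven. UCN3, the peptide urocortin 3, had 4.46 and 2.51 FPKM. IAPP, islet amyloid polypeptide, was at 0.759 FPKM in the live library and 0 in the processed library, and MAFA, a factor of mature beta cells, at 0.119 FPKM and 0. Of 12 islet markers, 9 reached an FPKM of 1, and bounds were apart for 3 with higher and 4 with lower values in the processed library, with a median log2 ratio of -0.05 that became 0.0514 when the libraries were scaled by the median ratio. PPY, pancreatic polypeptide, was listed at 0 in both. The lowest log2 ratio was that of PCSK1, a prohormone convertase, at -1.20, and the highest was that of GHRL, ghrelin, at 0.42. CHGA, chromogranin A, had the highest level, 1794 FPKM in the live library and 1741 FPKM in the processed library, where its status was a failed estimate.

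Of 14 islet transcription factors, 13 reached an FPKM of 1, and bounds were apart for 3 with higher and 6 with lower values in the processed library. Their median log2 ratio was -0.07, and 0.0254 with the same scaling. HNF4A, a nuclear receptor of liver, gut and pancreas, was the lowest at -0.67, with 22.9 FPKM in the live and 14.1 FPKM in the processed library. PAX4, a factor of the beta cell lineage, was the highest at 0.52, with 9.04 and 13.4 FPKM.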

How the data were processed

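RNA-seq of 1 live and 1 processed library was analysed. Per the labels and the paper's methods, paired 80 nt reads were mapped by the authors with STAR 2.2.0c on GRCh37/hg19 and GENCODE annotations, and they computed gene FPKM with Cufflinks/Cuffdiff 2.0.2. The deposited FPKM values and bounds are already normalized, and which fragments enter the library size is not stated. Start positions were shifted by 1 base to count from 1.

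Genes were joined by Ensembl identifier with Python 3.11.15, numpy 2.4.6 and pandas 2.3.3, and figures were drawn with matplotlib 3.10.9. Ratios used a pseudocount of 1, and shares over all genes used an FPKM of 1 or more in either library. A gene had bounds apart where the intervals of the libraries did not overlap. Ranges of ratios set opposite bounds against each other. The worth of 1 fragment was read from genes with a single transcript in GENCODE release 44 longer than 300 nt, as the median near the fullest bin (width 5.0e-04) of FPKM times length less 170 nt in kb, 0.0100 in the live and 0.0107 in the processed library. These settings follow an earlier look at the values.

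The 4 members and the 13 gene lists (104 genes) were chosen with earlier results of these data known. Genes named are the members, their paralogs, INS and ACTB, the extremes and highest level of each list, nearest and overlapping genes, and the most similar gene. Others (HK1, HK2, HK3, SLC16A1, CACNA1C, CACNA1A, the factors set beside the promoter windows, hormones and markers) were chosen after their values were seen. Some genes of these pathways are not reported here. Alternatives covered the pseudocount, the floor and 3 scalings.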

Additional observations from a re-analysis of the deposited data

How the results depend on the processing

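The pseudocount (1, 0.1 or none) cannot change the direction of a ratio. The scalings tried (same FPKM sum, median ratio, ACTB) divided the processed values by 0.978, 0.932 and 0.954. Factors this near 1 could not reverse SLC2A2, KCNJ11 or ABCC8, so their unchanged directions are not a check. The log2 ratio of SLC2A2 was 1.55 with a pseudocount of 0.1 and 2.65 without one, in place of 0.36, because its level is far below 1. Both values are past 2-fold, but the share of genes of such low level past this line was not computed. Over genes with an FPKM of 1 or more in both libraries, processed over live FPKM had a median of 0.932. On the log2 scale this is -0.10. Over all genes above 0, 2 members rather than 1 had bounds apart with higher values in the processed library, and among genes with an FPKM of 10 or more, 0 members had bounds apart with lower values, because KCNJ11 is below that floor. Medians near 0 changed sign. With median ratio scaling they were 0.0254 for islet transcription factors, 0.0514 for islet markers and 0.0856 for enterocyte markers, and with every listed gene they were -0.00705 for membrane excitability and -0.0520 for muscle markers. The counts of genes past 2-fold leave out SLC2A2, which is below the floor of 1. With a pseudocount of 0.1, genes past 2-fold numbered 1715 higher and 1753 lower in the processed library, in place of 1138 and 1072. With a floor of 10 they numbered 255 and 172, and genes with bounds apart 2285 and 4019, in place of 4867 and 7570; over all genes above 0, 12906 had bounds apart with lower values. No paired analysis was possible because each condition has 1 library and the labels give no replicate numbers.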

Other observations

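Markers of other cell types gave the following values. Of 7 neuron marker entries, 5 reached an FPKM of 1, with a median log2 ratio of -0.21, and 3 of them had bounds apart with lower values in the processed library. They ran from -0.58 for ELAVL4 to 0.07 for ELAVL3, both RNA-binding proteins of neurons, and TUBB3, a neuronal tubulin, had the highest level with 149 and 129 FPKM. Another entry of TUBB3, below the floor, had 0.621 and 0.104 FPKM and was also lower in the processed library with bounds apart. All 4 exocrine markers reached this level (median 0.17), with bounds apart for 2 with higher and 1 with lower values. CTRB1, a chymotrypsinogen, had 0.478 FPKM in the live and 2.87 FPKM in the processed library, a log2 ratio of 1.39. CEL, a lipase, was the lowest at -0.56, and the highest levels were those of CPA1, a carboxypeptidase, in the live library (10.4 FPKM) and of PRSS1, a trypsinogen, in the processed library (12.9 FPKM). Of 3 mesenchyme markers, 2 had bounds apart with lower values in the processed library (median of the 3, -0.48), and PDGFRB, a receptor of perivascular cells, had 4.26 and 1.17 FPKM, a log2 ratio of -1.28. The collagen gene COL3A1 was the highest of the 3 at -0.04, and COL1A1, another collagen gene, had the highest level with 31.9 and 22.7 FPKM. The pluripotency factor POU5F1 had 7.92 and 8.53 FPKM, and NANOG had 1.27 and 7.34 FPKM, a log2 ratio of 1.88 in a gene with near-identical pseudogene copies.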
